A study of Mus musculus with 12 samples.

Results

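Cells of the adipose stromal vascular fraction (SVF) that carried Trem2 RNA together with a macrophage receptor, and at most 1 UMI of Gpnmb and Mmp12 together, numbered 6564 of the 126095 cells kept (5.21%), with 4657 in epididymal (eWAT) and 1907 in inguinal (iWAT) white adipose tissue. A UMI (unique molecular identifier) tags a single RNA molecule, so copies made by PCR are not counted again. Members were chosen by measured values alone: the raw counts of a cell had to hold at least 1 UMI of Adgre1 or Csf1r, at least 1 of Trem2, no more than 1 of Gpnmb plus Mmp12, and none of Lyve1, Cd163, Mki67, Top2a or Pdgfra. Cells entered with 700 to 22000 UMIs, 200 to 6000 genes and under 25% mitochondrial UMIs. Of the kept cells, 53041 held a UMI of Adgre1 or Csf1r and none of Pdgfra. The members are called Gpnmb/Mmp12-low cells below, and the 5818 cells that met the same rule with 2 or more UMIs of Gpnmb plus Mmp12 are called Gpnmb/Mmp12-high cells. Since the rule chose the cells by these 10 genes, levels of these genes in them, and differences from cells outside the rule, are given as description with no test.

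The study profiled the SVF of both depots by droplet single-cell RNA sequencing in 12 libraries, 2 per group and depot, each a biological replicate by its label. The groups were lean C57BL/6J mice gavaged with vehicle (WT-Veh), obese Lepob/Lepob mice, which lack functional leptin, gavaged with vehicle (ob/ob-Veh), and Lepob/Lepob mice gavaged with the PPARγ agonist rosiglitazone at 30 mg/kg (ob/ob-Rosi). All were males of 12 weeks, treated for 3 days. No lean mice given rosiglitazone were analysed here. Tissue was digested with collagenase, the floating adipocytes were discarded, and red cells were lysed, so cells that floated with the adipocytes are not in these data.

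TREM2 is a lipid-sensing receptor of myeloid cells that signals through the adaptor TYROBP, and APOE is one of its ligands. In fat, TREM2 is known for its part in lipid-associated macrophages (LAMs), which gather around dying adipocytes and take up and break down lipid through fatty acid binding proteins and lysosomal enzymes. GPNMB, a transmembrane glycoprotein, and MMP12, a macrophage elastase, are among the proteins of these cells, whereas LYVE1 and CD163 mark the resident perivascular macrophages (PVMs) and CCR2 marks cells recently derived from blood monocytes. In GRCm38 Trem2 lies on chromosome 17 from 48346401 to 48354147, Gpnmb on chromosome 6 from 49036546 to 49070929 and Mmp12 on chromosome 9 from 7344381 to 7369499.

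Several facts of the libraries bear on every value below. They held 20132553 to 92475986 UMIs, with a median of 1132 to 4961 UMIs per kept cell, and the iWAT files held no barcode above the upper UMI or mitochondrial limit. The mutation of ob/ob mice leaves the Lep transcript in place, and it is known to be more abundant in fat cells of untreated ob/ob mice than in those of lean mice. Per 100 UMIs of the adipocyte transcript Adipoq, the eWAT libraries held 28.0 and 42.5 Lep UMIs under WT-Veh, 3.95 and 16.2 under ob/ob-Veh and 240.0 and 390 under ob/ob-Rosi, the ob/ob-Veh values resting on 7 and 43 Lep UMIs. The iWAT libraries held 20.1 and 31.6 under WT-Veh, 36.4 and 15.1 under ob/ob-Veh, on 4 and 8 Lep UMIs, and 164 and 141 under ob/ob-Rosi. Per total UMIs, Lep stood at 0.784 and 0.996 CPM (UMIs scaled to the same total in every library) under WT-Veh and 0.139 and 1.03 under ob/ob-Veh in eWAT, and at 1.69 and 1.66 against 0.157 and 0.408 CPM in iWAT. Lep under ob/ob-Veh was thus lower in eWAT and overlapping in iWAT per Adipoq UMI, and overlapping in eWAT and lower in iWAT per total UMIs. Neither scaling put both ob/ob-Veh libraries above WT-Veh in either depot. Under ob/ob-Rosi, Lep stood at 1.74 and 4.49 CPM in eWAT and 3.42 and 2.97 in iWAT, and lay above WT-Veh by both scalings in both depots. On few UMIs, the higher Lep known for untreated ob/ob mice was thus not seen under ob/ob-Veh. This comparison cannot tell which label is wrong, ob/ob-Veh or WT-Veh. Under ob/ob-Rosi Lep also lay above ob/ob-Veh by both scalings in both depots. Since the known difference concerns untreated mice, the check does not clear the label ob/ob-Rosi either. Whether any label is wrong was not tested. Directions below hold only as far as the labels do. Groups are therefore named by the labels of their libraries, and "under WT-Veh" means in the libraries labelled so, with the library of replicate 1 given before that of replicate 2. Libraries shared 7 to 99 kept barcodes over the 66 pairs, and 8 pairs shared 1 member barcode each.

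The limit on Gpnmb and Mmp12 cuts a gradual distribution. Of the cells that met the rest of the rule, 4449 held no UMI of the pair, 2115 held 1, 1086 held 2, 666 held 3 and 4066 held 4 or more, so 2115 members lay just inside the limit and 1086 cells just outside. Trem2 itself rested on 1 UMI in 2906 members, on 2 in 1275 and on 3 or more in 2383. In eWAT, members with 1 Trem2 UMI made up 36.9% and 37.1% under WT-Veh, 50.4% and 50.4% under ob/ob-Veh and 47.3% and 33.2% under ob/ob-Rosi. The limit is a number of UMIs and not a level, so it was stricter in deeper cells. Among eWAT Trem2 cells under WT-Veh, the low cells made up 82.8% and 81.1% at 700 to 2000 UMIs but 5.98% and 25.4% above 8000 UMIs, and under ob/ob-Rosi they went from 79.8% and 70.4% to 5.81% and 10.3%. Under ob/ob-Veh they still made up 81.2% and 75.0% above 8000 UMIs. In these 2 libraries most Trem2 cells were thus low in Gpnmb and Mmp12 at every depth, whereas in the other 4 eWAT libraries the low share of Trem2 cells fell from each depth range to the next. The median UMI count of the members was 2153 and 3811 under WT-Veh, 6972 and 6911 under ob/ob-Veh and 2024 and 4038 under ob/ob-Rosi, so depth moved with the label. The exclusion of Lyve1 and Cd163 also weighed unequally: cells that failed the rule on this point alone numbered 1434 and 618 under WT-Veh, beside 1636 and 728 members, and 342 and 391 under ob/ob-Veh, beside 125 and 123 members. Under ob/ob-Rosi such cells numbered 765 and 468, beside 924 and 1121 members. In iWAT 221 and 60 such cells stood beside 33 and 6 members under ob/ob-Veh, 582 and 1719 beside 467 and 345 under WT-Veh, and 947 and 2221 beside 465 and 591 under ob/ob-Rosi.

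**Figure D1:**
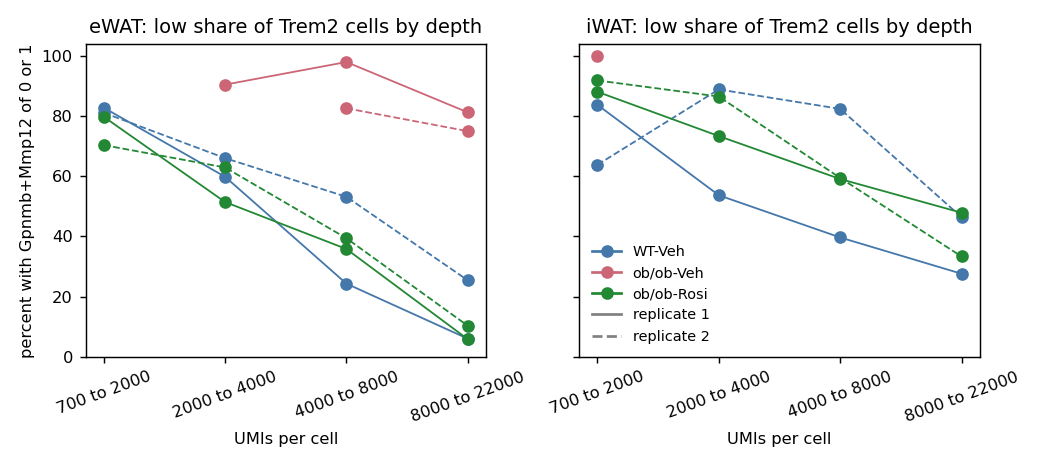
Percent of Trem2 cells that were Gpnmb/Mmp12-low (y axis) by the cell's total UMIs (x axis, bins), per library and depot, with solid lines for replicate 1 and dashed lines for replicate 2, for bins of at least 20 Trem2 cells. The eWAT lines under WT-Veh and ob/ob-Rosi fall from between 70.4% and 82.8% in the lowest bin to between 5.81% and 25.4% in the deepest, while those under ob/ob-Veh stay at 75.0% or above.

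The macrophage label was met less well under ob/ob-Veh than under the other labels in eWAT. A list of 8 macrophage identity genes, such as Csf1r, Cd68, Adgre1 and Tyrobp, summed to 8388 and 8170 CPM in eWAT members under WT-Veh, 2393 and 3819 under ob/ob-Veh and 8515 and 9097 under ob/ob-Rosi. Collagens and other stromal genes (8 genes, such as Dcn and Col3a1) summed to 3575 and 3591 CPM under WT-Veh, 16324 and 13926 under ob/ob-Veh and 3257 and 4433 under ob/ob-Rosi. Mesothelial genes, which mark the lining of the fat pad (6 genes, such as Upk3b, Msln and Krt19), summed to 41.1 and 173, 3282 and 2913, and 81.7 and 63.2 CPM in the same order. Stromal RNA was thus above macrophage RNA in the members of both eWAT libraries labelled ob/ob-Veh, and below it in those of the other 4. Erythroid genes (4 genes, such as Hba-a2) moved with the label as well, at 56.3 and 278 CPM under WT-Veh, 6.13 and 12.7 under ob/ob-Veh and 376 and 308 under ob/ob-Rosi. Only 2 of 1636 and 1 of 728 members held 2 or more erythroid UMIs under WT-Veh, 0 of 125 and 1 of 123 under ob/ob-Veh and 4 of 924 and 11 of 1121 under ob/ob-Rosi. How these UMIs were spread over cells was not tested. Endothelial genes, with Fabp4 left out of the sum, stood at 178 and 1343, 117 and 174, and 421 and 1141 CPM. B cell genes summed to 2981 CPM in WT-Veh replicate 2 and to 376 or less in the other 5 eWAT libraries. Members with no more UMIs of the macrophage list than of the stromal list made up 12.2% and 16.3% under WT-Veh, 55.2% and 46.3% under ob/ob-Veh and 8.98% and 13.3% under ob/ob-Rosi. Under ob/ob-Veh these cells were deep (medians of 9163 and 8958 UMIs), and 97.1% and 84.2% of them held at least 2 mesothelial UMIs, against 1.79% and 1.52% of the other members. Whether they are doublets was not tested.

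In eWAT, comparisons of genes between labels are therefore given over all members and again over the members led by macrophage UMIs, called macrophage-led cells, a choice made after the data were seen. Since this choice used the macrophage and stromal lists, levels of those genes in macrophage-led cells are description, and among the gene lists below it touches Cd68 (lipid-associated), Tyrobp (TREM2 complex), and C1qa and Fcgr1 (complement and phagocytosis). Macrophage-led cells numbered 1436 and 609 under WT-Veh, 56 and 66 under ob/ob-Veh and 841 and 972 under ob/ob-Rosi, with median depths of 2214 and 3980, 5609.5 and 5567.5, and 2080.0 and 4120.0 UMIs. Of these cells, 33.4% and 31.5%, 60.7% and 56.1%, and 44.6% and 28.8% held 1 Trem2 UMI, in the same order. In iWAT the stromal list led the macrophage list only under ob/ob-Veh, at 11048 against 5851 CPM in the library of 33 members and 5605 against 2527 CPM in that of 6, and no iWAT library held more than 23.0 CPM of mesothelial genes in its members.

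**Figure D2:**
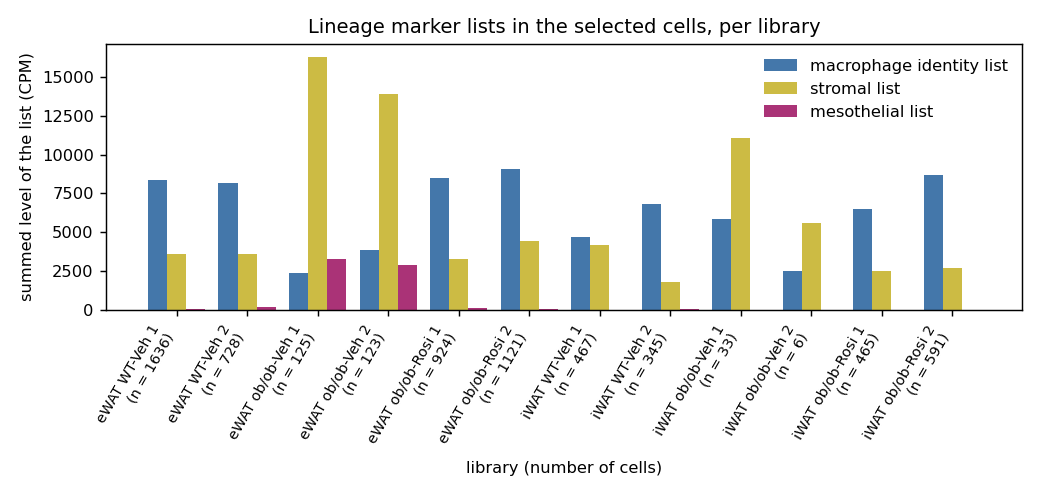
Summed CPM (y axis) of the macrophage identity, stromal and mesothelial marker lists in the Gpnmb/Mmp12-low cells of each library (x axis). Macrophage bars stand above stromal bars in the eWAT libraries under WT-Veh and ob/ob-Rosi (8170 to 9097 against 3257 to 4433 CPM), and stromal bars stand highest in both eWAT libraries under ob/ob-Veh (16324 and 13926 CPM).

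Trem2 RNA was also found outside macrophages. In eWAT endothelial cells, which should lack Trem2, 27.0% and 50.2% of cells held a Trem2 UMI under WT-Veh, 1.96% and 2.74% under ob/ob-Veh and 29.7% and 52.2% under ob/ob-Rosi, at medians of 2022.5 to 4401 UMIs per cell. The level of Trem2 was 1225 and 883 CPM in members and 177 and 153 CPM in endothelial cells under WT-Veh, 284 and 340 against 3.46 and 4.73 under ob/ob-Veh, and 978 and 932 against 128 and 177 under ob/ob-Rosi. The rule fixed that members hold Trem2, so their higher level is no finding. Trem2 in endothelial cells was lowest where members were fewest. How many cells met the rule through free RNA was not tested, and a cut at 2 Trem2 UMIs is given beside the shares.

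Gpnmb/Mmp12-low cells were a smaller part of the SVF in both depots under ob/ob-Veh than under WT-Veh or ob/ob-Rosi, where their shares overlapped. In eWAT they made up 11.1% and 11.2% of kept cells under WT-Veh, 1.36% and 1.59% under ob/ob-Veh and 9.79% and 11.1% under ob/ob-Rosi. The group means were 11.2% ± 0.0940, 1.48% ± 0.158 and 10.5% ± 0.951 (SD, n = 2), and by the ratio of geometric means the share under ob/ob-Veh was 7.60-fold below that under WT-Veh and 7.10-fold below that under ob/ob-Rosi. In iWAT the shares were 2.74% and 3.51%, 0.458% and 0.0833%, and 4.81% and 3.38%, with means of 3.12% ± 0.545, 0.271% ± 0.265 and 4.09% ± 1.01 (SD, n = 2). The iWAT value of 0.0833% rests on 6 cells, with a 95% Wilson interval of 0.0382% to 0.182% that covers counting error only. By the ratio of geometric means the iWAT share under ob/ob-Veh was 15.9-fold below that under WT-Veh (log2 -3.99) and 20.6-fold below that under ob/ob-Rosi (log2 4.37 for ob/ob-Rosi over ob/ob-Veh). These ratios rest on the 2 ob/ob-Veh libraries, and leaving out 1 library gave log2 values from -5.22 to -2.76 and from 3.14 to 5.60. With 2 libraries a group an exact two-sided permutation test cannot go below p = 0.333, which is the value of each of these 4 differences, and ob/ob-Rosi against WT-Veh gave p = 0.667 in both depots. The lower share under ob/ob-Veh was not particular to the low cells. Gpnmb/Mmp12-high cells made up 8.87% and 10.6% of kept eWAT cells under WT-Veh, 0.164% and 0.348% under ob/ob-Veh and 10.5% and 18.7% under ob/ob-Rosi. Their iWAT shares were 1.14% and 1.46%, 0.0694% and 0.0416%, and 2.90% and 1.62%.

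The fold values rest on a rule that leaves out cells with Lyve1 or Cd163, and shares with such cells kept were not computed. For the low cells the order of the labels held under stricter definitions. The first was a share of cells with a UMI of Adgre1 or Csf1r and none of Pdgfra. Of these cells, eWAT members made up 20.5% and 21.7% under WT-Veh, 4.29% and 4.68% under ob/ob-Veh and 17.8% and 19.6% under ob/ob-Rosi. This gate takes any cell with 1 UMI of Adgre1 or Csf1r and no Pdgfra UMI. How many of these cells met it through free RNA was not tested. With at least 2 Trem2 UMIs the eWAT shares were 7.02% and 7.08%, 0.676% and 0.787%, and 5.16% and 7.44%. Macrophage-led cells made up 9.76% and 9.41%, 0.611% and 0.852%, and 8.91% and 9.65% of kept eWAT cells, and 1.57% and 3.24%, 0.236% and 0.0278%, and 3.94% and 3.09% of kept iWAT cells. When each cell was first thinned to 700 UMIs, the eWAT shares were 8.86% and 10.4%, 0.306% and 0.787%, and 8.01% and 11.3%. In each of these settings both libraries labelled ob/ob-Veh lay below the other 4 of their depot.

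**Figure D3:**
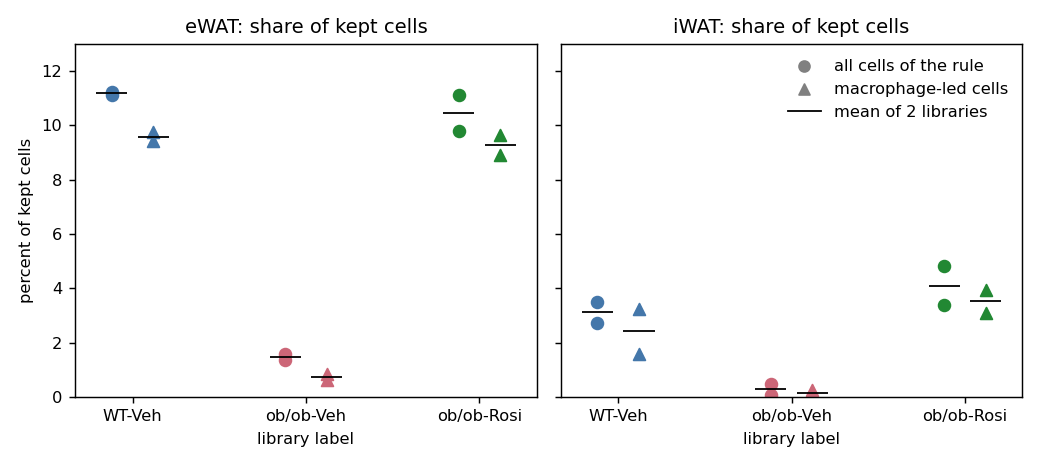
Gpnmb/Mmp12-low cells as a percent of kept cells (y axis) in each library, by depot and label (x axis), with circles for all members, triangles for macrophage-led members and a line at the mean of the 2 libraries. In eWAT the circles stand at 1.36% and 1.59% under ob/ob-Veh and between 9.79% and 11.2% under the other labels.

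Next to the Gpnmb/Mmp12-high cells of the same library, the low cells carried less of the LAM program and more RNA of antigen presentation and monocytes. Of 24 other lipid-associated genes, 21 were lower in the low cells in all 9 libraries with at least 20 cells of both kinds, at a median log2 ratio of -0.95. Over all 11527 genes tested in eWAT, 6.95% were lower and 13.4% were higher in the low cells in all 9 libraries. The largest median ratios were those of the protease Ctsk (-2.71), the integrin Itgax (-2.09), the osteopontin gene Spp1 (-1.95) and the proton pump subunit Atp6v0d2 (-1.92). Fabp5, a fatty acid binding protein, and Lgals3, a galectin, followed at -1.32 and -1.29, and 13 of 18 lysosome genes were lower in every library. In the other direction, 7 of 10 MHC class II genes were higher in every library, among them H2-Eb1 (1.04), H2-Aa (0.95) and Cd74 (0.95). So were 8 of 14 monocyte genes, among them the chemokine receptor Ccr2 (1.87), Plac8 (2.37) and the chitinase-like gene Chil3 (2.58), while 1, F10, was lower in all 9 (-0.65). The label genes separated them little: Apoe differed by a median log2 ratio of 0.19, the chemokine Cxcl2 by 0.32, the stress cytokine Gdf15 by 0.06 and the tetraspan-like gene Ms4a7 by -0.30. Resident and perivascular genes (11 of 16, median 1.29), genes of the dissociation response (13 of 18), dendritic cell genes (4 of 7, median 1.28), T and NK cell genes (6 of 9, median 1.48), stromal genes (6 of 8) and endothelial genes (7 of 8) were also higher in the low cells in every library, and the high cells were deeper (4007 and 7837 UMIs under WT-Veh). These are descriptions, since the rule split the cells on the same RNA.

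Next to macrophages with Lyve1 or Cd163, which number 9295, the low cells had more LAM RNA. The rule of these macrophages asked for 2 or more UMIs of Lyve1 plus Cd163, no Trem2 UMI and at most 1 UMI of Gpnmb plus Mmp12. Of the lipid-associated genes 9 were higher in all 11 libraries and none was lower in all, among them Atp6v0d2 (2.02), the tetraspanin Cd9 (2.00), Fabp5 (1.85) and Lgals3 (1.64). Of 16 resident and perivascular genes 13 were lower in all 11 libraries, among them the mannose receptor Mrc1 (-1.79) and the folate receptor Folr2 (-1.94), beside 4.88% of all genes tested that were higher and 5.81% that were lower in all 11. Ccr2 (1.31) and the fibronectin gene Fn1 (1.84) were higher, and Apoe (-0.76) was lower, in 11 of 11 libraries. By these genes the low cells stood between the Gpnmb/Mmp12-high cells and the perivascular macrophages in LAM RNA. The rules split these cells on Trem2, Gpnmb and Mmp12, so this order is a description with no test.

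UMIs of the members were then summed per library, and the labels were compared within a depot by the quasi-likelihood test of edgeR, with TMM normalization and libraries as replicates. Calls needed a 1.1-fold change or more and an adjusted p (Benjamini-Hochberg) no higher than 0.05, and the genes of the rule were left out. ob/ob-Veh over WT-Veh, on the log2 scale, is called the ob/ob effect, and ob/ob-Rosi over ob/ob-Veh the Rosi effect. Both rest on the same 2 libraries labelled ob/ob-Veh, so they are not independent, and every value below is of members and not of macrophages as a whole. In sums over cells, fewer cells of a type and less RNA per cell cannot be told apart.

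Across all eWAT members, 2185 of 11527 genes tested differed between ob/ob-Veh and WT-Veh (19%), 1335 higher (11.6%) and 850 lower (7.37%) under ob/ob-Veh. The count fell to 1134 without WT-Veh replicate 1, to 690 without ob/ob-Veh replicate 1 and to 1143 without ob/ob-Veh replicate 2, and scaling by library size alone gave 1674 higher and 411 lower, with the median of all genes at 0.27 in place of -0.02. Lgals7, an epithelial galectin, stood at 3.28 and 10.7 CPM under WT-Veh, 768 and 632 under ob/ob-Veh and 13.1 and 3.22 under ob/ob-Rosi (log2 6.41 ± 0.63 (SE), adjusted p = 0.000153). Upk3b, a uroplakin of mesothelium, stood at 15.4 and 53.3 CPM under WT-Veh, 1452 and 1038 under ob/ob-Veh and 26.2 and 13.3 under ob/ob-Rosi (4.95 ± 0.54 (SE), adjusted p = 0.000219). All 6 mesothelial genes rose, with a median of 4.81, and 5 of 8 stromal genes rose, such as the proteoglycan Dcn at 769 and 1071 CPM under WT-Veh, 10065 and 7859 under ob/ob-Veh and 891 and 1099 under ob/ob-Rosi (3.01 ± 0.29 (SE), adjusted p = 0.000143). The 5 largest rises by the naming rule were Slc23a4, Lgals7, Perp, Asic2 and Gm765. Slc23a4 held 26.6 and 21.2 CPM under ob/ob-Veh and no UMI in the members of the other 4 libraries. In macrophage-led cells Upk3b stood at 0.69 to 15.0 CPM in all 6 libraries, too low to be tested. Among the 5 largest falls were Rbp7 and Cldn5, both of endothelium, Hba-a2 of red cells, the dendritic cell receptor Ccr7 and 8430408G22Rik. Rbp7 stood at 62.3 and 330.0 CPM under WT-Veh, 2.04 and 1.06 under ob/ob-Veh and 29.8 and 77.6 under ob/ob-Rosi across members (-7.15 ± 1.02 (SE), adjusted p = 0.00094). Of 8 endothelial genes 6 fell and of 3 erythroid genes 3 fell, so RNA of other lineages moved with the label in both directions.

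In macrophage-led cells 111 of 10302 genes were called (1.08%), 63 higher (0.612%) and 48 lower (0.466%) under ob/ob-Veh. Of these, 62 had also been called across all members (2.84% of the 2185 and 55.9% of the 111). Only 1533 of the 2185 were tested in macrophage-led cells, and 1250 of those kept their sign, in sets that share cells. The counts rested on the pair of libraries labelled ob/ob-Veh: without ob/ob-Veh replicate 1 there were 16 higher and 3 lower genes, and without replicate 2 there were 24 and 5. Without any 1 of the other 4 libraries 50 to 127 genes were higher and 55 to 110 lower. DESeq2 called 105 higher and 76 lower, the replicate block gave 173 and 139, and library size alone gave 63 and 31. In macrophage-led cells of 4000 to 8000 UMIs, where depths overlapped between labels (141 and 207 cells under WT-Veh, 30 and 24 under ob/ob-Veh, 173 and 426 under ob/ob-Rosi), 2 of 7609 genes were higher (0.0263%) and 10 lower (0.131%), 0.158% in all.

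Genes of lipid-associated macrophages were lower under ob/ob-Veh than under WT-Veh. Of the 24 genes, 18 fell across all members and 10 fell in macrophage-led cells, with no rise in either, and medians of -2.10 and -1.16 beside -0.02 and -0.03 over all genes tested. The lysosomal protease Ctsl stood at 1749.8 and 1396 CPM under WT-Veh, 349 and 351 under ob/ob-Veh and 1113 and 1125 under ob/ob-Rosi in macrophage-led cells (log2 -2.30 ± 0.27 (SE), adjusted p = 0.000476). Lgals3 stood at 4158 and 3371 CPM under WT-Veh, 1169 and 1369.5 under ob/ob-Veh and 3220.2 and 3732 under ob/ob-Rosi (-1.70 ± 0.25 (SE), adjusted p = 0.00329). Fabp5 stood at 843 and 769 CPM under WT-Veh, 216 and 289 under ob/ob-Veh and 614 and 614 under ob/ob-Rosi (-1.80 ± 0.27 (SE), adjusted p = 0.0033). For each of these 3 genes the 2 values under ob/ob-Veh lay below the other 4, which overlapped between WT-Veh and ob/ob-Rosi for Lgals3 and did not for Ctsl and Fabp5. Fabp4, the fatty acid binding protein of adipocytes and endothelium, stood at 2764 and 3889 CPM under WT-Veh, 379 and 906 under ob/ob-Veh and 2746 and 3696 under ob/ob-Rosi (-2.50 ± 0.34 (SE), adjusted p = 0.00177). The tetraspanin Cd63, of late endosomes, stood at 1412 and 1259 CPM under WT-Veh, 330.5 and 605 under ob/ob-Veh and 1485 and 1261 under ob/ob-Rosi (-1.65 ± 0.29 (SE), adjusted p = 0.00909), and the lipid droplet coat Plin2 at 2243 and 1631 CPM under WT-Veh, 946 and 719 under ob/ob-Veh and 1134 and 1417 under ob/ob-Rosi (-1.34 ± 0.29 (SE), adjusted p = 0.0276). The lysosomal acid lipase Lipa (log2 -1.27, adjusted p = 0.0374), Ctsk (-2.06, adjusted p = 0.0313), Atp6v0d2 (-1.72, adjusted p = 0.032) and the galectin Lgals1 (-1.33, adjusted p = 0.0182) fell as well, and Lgals1 gave a value above 0 across all members (0.75, adjusted p = 0.0799). Ctsb, the most abundant cathepsin of the list, fell across all members (-1.63, adjusted p = 0.00207) and stood at 4278 and 4295 CPM under WT-Veh, 2647 and 3064 under ob/ob-Veh and 4588 and 4607 under ob/ob-Rosi in macrophage-led cells (-0.71, adjusted p = 0.157).

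Depth moved with this result, and so did levels of some of these genes in other cells. At 4000 to 8000 UMIs 4 of the 24 genes fell, Fabp4 (log2 -3.19 ± 0.28, adjusted p = 0.000157), Fabp5 (-2.14 ± 0.32, adjusted p = 0.0159), Lgals3 (-2.13 ± 0.32, adjusted p = 0.0159) and Ctsl (-2.21 ± 0.36, adjusted p = 0.0276), and all 24 lay below 0 with a median of -1.25. Among the 10 genes called lower by edgeR at this depth were also 2 of endothelium, Rbp7 (-9.22 ± 1.34, adjusted p = 0.0159) and Cldn5 (-5.27 ± 0.77, adjusted p = 0.0159). Fabp4 is on the endothelial list too. In endothelial cells Lgals3 stood at 918 and 708 CPM under WT-Veh, 50.2 and 75.0 under ob/ob-Veh and 812 and 955 under ob/ob-Rosi, and Fabp5 at 4626 and 3823 CPM under WT-Veh, 620.3 and 554 under ob/ob-Veh and 1358 and 1126 under ob/ob-Rosi, so both were lower under ob/ob-Veh there as well. Fabp5 stood higher in endothelial cells than in macrophage-led cells under every label, so its level there is no measure of free RNA. In Lyve1/Cd163 macrophages Lgals3 stood at 1321 and 1584 CPM under WT-Veh, 217 and 258 under ob/ob-Veh and 1379 and 2309.9 under ob/ob-Rosi. The part of free RNA in the fall was not tested. Without ob/ob-Veh replicate 1 the list held 2 called genes and without replicate 2 it held 3, and over 10 other settings of the macrophage-led comparison its median stayed between -1.50 and -1.02.

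Genes of monocytes went the other way in macrophage-led cells. Of the 14 genes 6 rose and none fell, with a median of 1.38, whereas across all members 3 rose and the median was -0.03 (0.27 by library size alone). Fn1, which encodes the matrix protein fibronectin, stood at 294 and 292 CPM under WT-Veh, 3719 and 4118 under ob/ob-Veh and 992 and 359 under ob/ob-Rosi (log2 3.62 ± 0.38 (SE), adjusted p = 0.000256). Both values under ob/ob-Veh lay far above the other 4, the nearest of which was 992 CPM. Ccr2, the receptor that draws monocytes to CCL2, stood at 112 and 224 CPM under WT-Veh, 865 and 707 under ob/ob-Veh and 346 and 331 under ob/ob-Rosi (2.13 ± 0.31 (SE), adjusted p = 0.00329), and Plac8 at 16.8 and 42.5 CPM under WT-Veh, 177 and 155 under ob/ob-Veh and 35.4 and 55.3 under ob/ob-Rosi (2.40 ± 0.39 (SE), adjusted p = 0.00604). Ifitm6 (2.15, adjusted p = 0.00882), the coagulation factor F10 (1.90, adjusted p = 0.00909) and the proteoglycan Vcan (3.15, adjusted p = 0.0276) rose too, Vcan on 162 CPM in ob/ob-Veh replicate 1 against 19.1 in replicate 2. Ifitm6, F10 and Cd209a below were named after their values were seen. In endothelial cells Fn1 stood at 168 and 58.0 CPM under WT-Veh, 193 and 225 under ob/ob-Veh and 137 and 60.9 under ob/ob-Rosi. Ccr2 stood there at 24.3 and 15.7 CPM under WT-Veh, 53.6 and 37.5 under ob/ob-Veh and 25.4 and 5.9 under ob/ob-Rosi. The part of free RNA in these levels was not tested. In Lyve1/Cd163 macrophages Fn1 stood at 156 and 117 CPM under WT-Veh, 602 and 597 under ob/ob-Veh and 203 and 309.7 under ob/ob-Rosi, so it was higher under ob/ob-Veh there too, at a lower level. At 4000 to 8000 UMIs none of the 12 monocyte genes tested was called, although all 12 lay above 0 with a median of 1.44. Without ob/ob-Veh replicate 1 only 2 of the 14 genes rose, with 5 below 0 and a median of 0.77, and without ob/ob-Veh replicate 2 only 3 rose, while without WT-Veh replicate 2 the median was 2.22. Cd209a, a lectin of monocyte-derived dendritic cells, rose from 4.48 and 7.31 CPM to 51.1 and 62.1 (3.16 ± 0.41 (SE), adjusted p = 0.000992), and was not called at 4000 to 8000 UMIs (3.32, adjusted p = 0.0757).

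**Figure D4:**
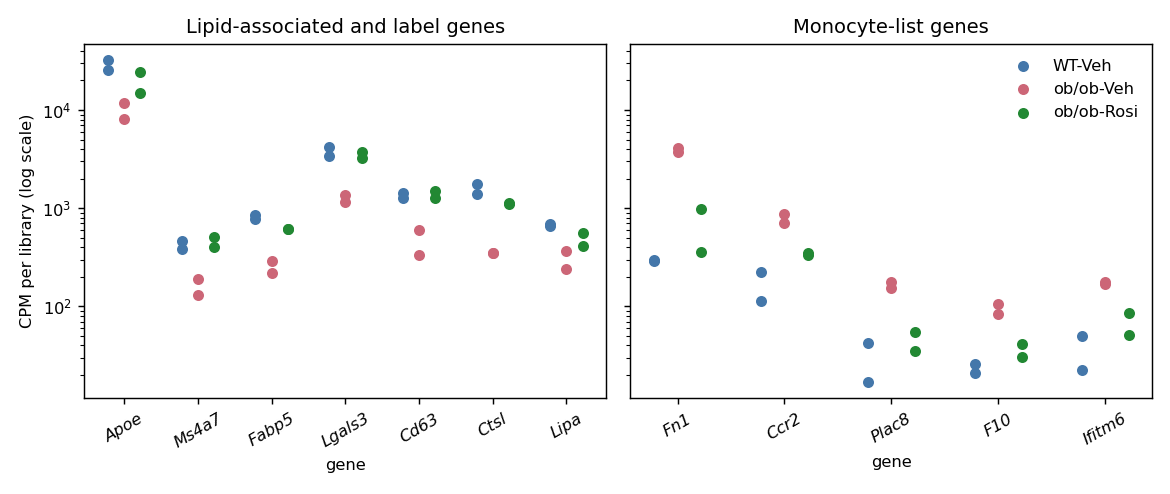
CPM (y axis, log scale) of lipid-associated and label genes and of monocyte genes (x axis) in the macrophage-led Gpnmb/Mmp12-low cells of each eWAT library, coloured by label. The points under ob/ob-Veh lie lowest for Ctsl (349 and 351 CPM) and Lgals3 (1169 and 1369.5 CPM) and highest for Fn1 (3719 and 4118 CPM) and Ccr2 (865 and 707 CPM).

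The markers of the label split. Apoe stood at 30621 and 22269.6 CPM under WT-Veh, 3284 and 5768 under ob/ob-Veh and 23505 and 13337 under ob/ob-Rosi across all members and at 32257 and 25429 CPM under WT-Veh, 8079 and 11759 under ob/ob-Veh and 24673 and 14845 under ob/ob-Rosi in macrophage-led cells, and fell under ob/ob-Veh in both (log2 -2.86 ± 0.39 (SE), adjusted p = 0.000661 and -1.68 ± 0.27 (SE), adjusted p = 0.00604). Ms4a7 stood at 462 and 387 CPM under WT-Veh, 129 and 189 under ob/ob-Veh and 512 and 406 under ob/ob-Rosi in macrophage-led cells and fell (-1.54 ± 0.30 (SE), adjusted p = 0.0165), but was not called at 4000 to 8000 UMIs (-1.25, adjusted p = 0.12). Cxcl2 and Gdf15 fell across all members (-1.81, adjusted p = 0.00315 and -2.50, adjusted p = 0.00326), but neither was called in macrophage-led cells. There Cxcl2 stood at 3504 and 2636 CPM under WT-Veh, 2869 and 1783 under ob/ob-Veh and 3155 and 2327 under ob/ob-Rosi (-0.52, adjusted p = 0.414) and Gdf15 at 585 and 390.2 CPM under WT-Veh, 288 and 112 under ob/ob-Veh and 403 and 171 under ob/ob-Rosi (-1.42, adjusted p = 0.147). Of 12 genes of the TREM2 receptor complex and its signalling, 8 fell across all members and 1, Apoe, fell in macrophage-led cells. The adaptor Tyrobp stood there at 2290.1 and 2247 CPM under WT-Veh, 1193 and 1883 under ob/ob-Veh and 2062 and 2700.2 under ob/ob-Rosi, given with no test since Tyrobp helped to choose these cells. Apoe in endothelial cells, at 3969 and 3140.3 CPM under WT-Veh, 1201 and 1471 under ob/ob-Veh and 2494 and 2539 under ob/ob-Rosi, was lower under ob/ob-Veh as well.

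Most other gene lists held more calls over all members, stromal and mesothelial RNA included, than over macrophage-led cells. The difference between these fits was not tested, and the counts over all members stand beside 11.6% of all genes higher and 7.37% lower. MHC class II genes fell in 5 of 10 cases across all members (median -1.03), while none was called in macrophage-led cells (median 0.26), where H2-Ab1 stood at 2750.3 and 4137 CPM under WT-Veh, 4453 and 4309 under ob/ob-Veh and 3279.5 and 4222 under ob/ob-Rosi (log2 0.24, adjusted p = 0.686) against -1.09, adjusted p = 0.0155 over all members. Lysosome genes (7 of 18 fell, none in macrophage-led cells), antioxidant and iron genes (5 of 14 fell, against 1 of 13, Ftl1) and cholesterol efflux genes (3 of 12 fell, against none) followed the same order. Complement and phagocytosis genes gave 9 falls and 1 rise of 17 across all members, and 2 rises, Cfp and Itgam, in macrophage-led cells. Resident and perivascular genes gave 6 falls and 1 rise of 16, and in macrophage-led cells the chemokine Ccl8 alone fell. Ribosomal protein genes fell in 21 of 83 cases across all members and in none in macrophage-led cells, and interferon genes rose in 4 of 15 and in none of 14. Respiratory chain genes gave 1 rise and 4 falls of 91, below the shares over all genes in both directions, and no call in macrophage-led cells. The PPAR and fatty acid list gave 3 falls of 19, among them Pparg (-2.04, adjusted p = 0.0085), and in macrophage-led cells 1, the lipase inhibitor Angptl4, at 182 and 188 CPM under WT-Veh, 42.1 and 43.0 under ob/ob-Veh and 68.2 and 95.1 under ob/ob-Rosi (-2.24 ± 0.34 (SE), adjusted p = 0.00329; -2.20, adjusted p = 0.0567 at 4000 to 8000 UMIs). Pparg, the receptor of rosiglitazone, stood in macrophage-led cells at 33.4 and 42.5 CPM under WT-Veh, 18.0 and 38.2 under ob/ob-Veh and 37.5 and 44.4 under ob/ob-Rosi (-0.51, adjusted p = 0.567).

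Single genes of several other lists rose in macrophage-led cells. Ptgs2, which encodes cyclooxygenase 2, was the only one of 15 NF-kB genes, at 24.1 and 23.7 CPM under WT-Veh, 174 and 109.9 under ob/ob-Veh and 25.6 and 14.8 under ob/ob-Rosi (log2 2.44 ± 0.36 (SE), adjusted p = 0.00329). Il6 rose with Ccl24 among 23 chemokines and cytokines, at 7.85 and 13.2 CPM under WT-Veh, 48.1 and 122 under ob/ob-Veh and 11.9 and 3.93 under ob/ob-Rosi (2.92 ± 0.50 (SE), adjusted p = 0.00831), while Il1b stood at 304 and 607 CPM under WT-Veh, 592 and 385 under ob/ob-Veh and 389.7 and 623 under ob/ob-Rosi (0.01, adjusted p = 0.996). The heat shock gene Hspa1b was the only one of 18 genes of the dissociation response, at 14.3 and 20.2 CPM under WT-Veh, 255 and 59.8 under ob/ob-Veh and 19.2 and 17.3 under ob/ob-Rosi (3.07 ± 0.50 (SE), adjusted p = 0.00579), and its 2 values under ob/ob-Veh lay far apart. The adhesive protein Thbs1, of the matrix list, stood at 86.3 and 65.4 CPM under WT-Veh, 775 and 337 under ob/ob-Veh and 146 and 71.7 under ob/ob-Rosi (2.75 ± 0.42 (SE), adjusted p = 0.0035), and the cystine carrier Slc7a11, of the integrated stress response list, at 16.5 and 9.75 CPM under WT-Veh, 84.1 and 95.6 under ob/ob-Veh and 34.5 and 22.0 under ob/ob-Rosi (2.62 ± 0.39 (SE), adjusted p = 0.00329). Hif1a rose among the 15 glycolysis and hypoxia genes tested. At 4000 to 8000 UMIs, Il6 gave 1.61 ± 1.53 (SE), adjusted p = 0.647, and neither Ptgs2 (2.33, adjusted p = 0.115) nor Hspa1b (3.33, adjusted p = 0.0815) was called.

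**Figure D5:**
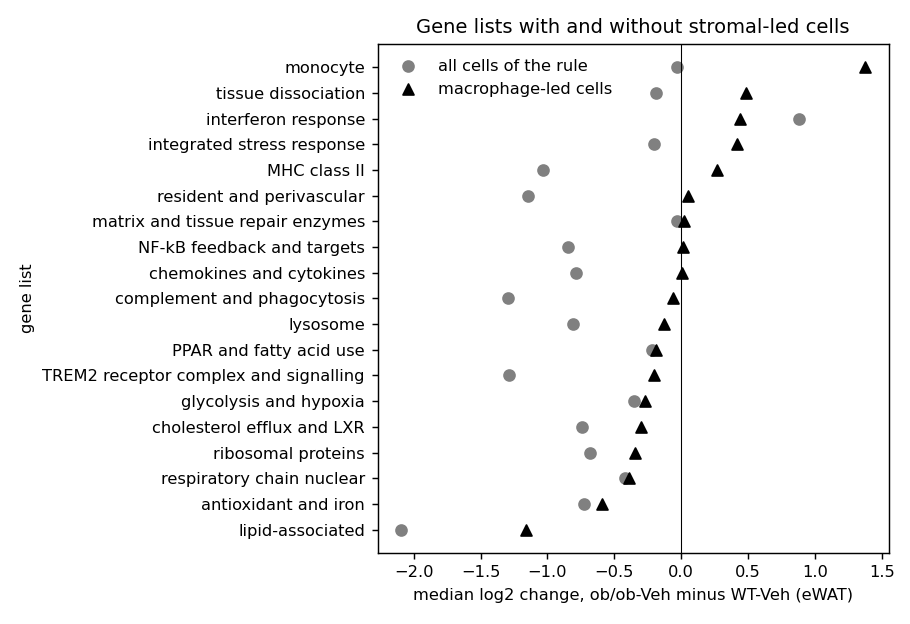
Median log2 ratio of ob/ob-Veh to WT-Veh (x axis) over the tested genes of each of 19 gene lists (y axis) in eWAT, for all members and for macrophage-led members. The lipid-associated list lies at -2.10 and -1.16, and the monocyte list at -0.03 and 1.38.

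Under ob/ob-Rosi, eWAT members differed from those under ob/ob-Veh in 2171 of 11527 genes (18.8%), 854 higher (7.41%) and 1317 lower (11.4%), and macrophage-led cells in 64 of 10302 (0.621%), 30 higher (0.291%) and 34 lower (0.33%). Over all members the count fell to 899 without ob/ob-Rosi replicate 2, to 704 without ob/ob-Veh replicate 1 and to 1217 without ob/ob-Veh replicate 2, and library size alone gave 409 higher and 1592 lower, with the median of all genes at -0.23. As the same ob/ob-Veh libraries enter both effects, opposite signs here and above are no separate evidence. Lipid-associated genes rose, 19 of 24 with 1 fall across all members (median 1.81) and 5 of 24 with no fall in macrophage-led cells (median 0.96, all 24 above 0). The 5 were Lgals3 (log2 1.54 ± 0.25 (SE), adjusted p = 0.00795), Ctsl (1.76 ± 0.27 (SE), adjusted p = 0.00543), Fabp4 (2.42 ± 0.34 (SE), adjusted p = 0.00317), Cd63 (1.64 ± 0.29 (SE), adjusted p = 0.0142) and Fabp5 (1.37 ± 0.27 (SE), adjusted p = 0.027). Monocyte genes gave 2 falls and no rise in macrophage-led cells, Fn1 (-2.46 ± 0.36 (SE), adjusted p = 0.00467) and Plac8 (-1.77 ± 0.38 (SE), adjusted p = 0.0445), with a median of -1.08, while Ccr2 gave -1.14, adjusted p = 0.122. Of these genes 0 fell without ob/ob-Veh replicate 1, 1 fell without ob/ob-Veh replicate 2, 1 fell without ob/ob-Rosi replicate 2, 4 fell without WT-Veh replicate 1 or replicate 2, and 0 of 12 fell at 4000 to 8000 UMIs. Ms4a7 rose (1.61 ± 0.30 (SE), adjusted p = 0.0181; 1.58, adjusted p = 0.0606 at 4000 to 8000 UMIs) and Apoe gave 1.08 ± 0.27 (SE), adjusted p = 0.0856, which missed the limit. Ptgs2 (-2.75, adjusted p = 0.00255), Il6 (-3.44, adjusted p = 0.00543), Hspa1b (-3.02, adjusted p = 0.00795) and Thbs1 (-2.29, adjusted p = 0.0156) fell. At 4000 to 8000 UMIs the value of Il6 was 0.020 ± 1.46 (SE), adjusted p = 0.997, too imprecise to give a direction. Ptgs2 (-2.23, adjusted p = 0.106) and Hspa1b (-3.29, adjusted p = 0.0694) were not called there. Pparg, the drug's target, rose across all members (2.06, adjusted p = 0.00756) and gave 0.60, adjusted p = 0.554 in macrophage-led cells. No gene of the PPAR and fatty acid list was called there. Fabp4, which the paper treats as a PPARγ target, is on the lipid-associated list and rose, as given above. MHC class II genes rose across all members (7 of 10, median 1.27) and gave no call in macrophage-led cells (median -0.05).

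Other lineages moved with this comparison as well. Mesothelial genes fell across all members (6 of 6, median -5.40), with Upk3b at -5.75, adjusted p = 0.000105, and the 5 largest falls by the naming rule were Slc23a4, Aqp5, Fam110c, Ces1d and Aldh1a7. The 5 largest rises were Hba-a2, Tcf15, Tmem252, Ndufa4l2 and Fscn1. Endothelial genes rose (7 of 8; 2 in macrophage-led cells), and so did all 3 erythroid genes in both, with Hba-a2 at 7.29 and 1.39 CPM under WT-Veh, 3.00 and 0 under ob/ob-Veh and 59.3 and 54.6 under ob/ob-Rosi in macrophage-led cells (5.44 ± 0.97 (SE), adjusted p = 0.0142). Of all members under ob/ob-Rosi, 4 of 924 and 11 of 1121 held 2 or more erythroid UMIs. The counts in macrophage-led cells depended on single libraries: without ob/ob-Veh replicate 1 there were 1 rise and 14 falls, without ob/ob-Veh replicate 2 there were 2 and 13, and without ob/ob-Rosi replicate 2 there were 9 and 6. In the other direction there were 107 and 116 without ob/ob-Rosi replicate 1, 88 and 95 without WT-Veh replicate 1, 82 and 87 without WT-Veh replicate 2 and 103 and 124 with the replicate block, while library size alone gave 13 and 28. The lipid-associated list held 0 or 1 rises when the first or the second ob/ob-Veh library was left out, and 4 without ob/ob-Rosi replicate 2. At 4000 to 8000 UMIs 4 genes rose (0.0526%) and 4 fell (0.0526%), 0.105% in all, and of the lipid-associated genes Fabp4 (2.91), Fabp5 (1.85) and Lgals3 (1.99) were called.

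Members under ob/ob-Rosi were not told apart from those under WT-Veh. No gene was called by edgeR across all eWAT members, with 219 genes at an unadjusted p under 0.05, and DESeq2 called none either. In macrophage-led cells 2 genes were called (0.0194%), the globins Hba-a2 (3.58 ± 0.50 (SE), adjusted p = 0.0107) and Hbb-bt. This count moved with single libraries, to 23 higher and 3 lower genes without WT-Veh replicate 2, to 4 and 6 without WT-Veh replicate 1 and to 3 and 11 without ob/ob-Rosi replicate 1, and the replicate block gave 13 and 6. Fn1 gave 1.16 ± 0.35 (SE), adjusted p = 1, on values of 992 CPM in ob/ob-Rosi replicate 1 and 359 in replicate 2, and Ccr2 gave 0.99 ± 0.30 (SE), adjusted p = 1. The lack of calls does not show that the groups were alike.

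In iWAT the comparison with ob/ob-Veh rested on 1 library of 33 members, since the other held 6 and was left out of the fit. No gene of 10964 was called by edgeR in any of the 3 comparisons, with 1309, 1495 and 464 genes at an unadjusted p under 0.05 for the ob/ob effect, the Rosi effect and ob/ob-Rosi against WT-Veh. DESeq2 called 157, 245 and 2. The lack of calls by edgeR did not hold in other settings: the replicate block gave 65, 111 and 40 genes, and leaving out 1 library gave 69 to 356, 43 to 474 and 0 to 203. The fit put the median of all genes at -0.46 for the ob/ob effect and 0.45 for the Rosi effect, so changes are read against these. The lipid-associated list had a median of -1.77 for the ob/ob effect, with 2 of 24 genes above 0, and of 1.61 for the Rosi effect. The monocyte list had medians of 0.70 and 0.15. Lgals3 stood at 1772 and 3256 CPM under WT-Veh, 747 and 91.9 under ob/ob-Veh and 2720.5 and 3293 under ob/ob-Rosi, the last ob/ob-Veh value being that of the 6 cells (log2 -2.16 ± 0.58 (SE), adjusted p = 0.274). Ccr2 stood at 123 and 189.5 CPM under WT-Veh, 677 and 276 under ob/ob-Veh and 261 and 282 under ob/ob-Rosi (1.70 ± 0.41 (SE), adjusted p = 0.267), and Fn1 at 549 and 685 CPM under WT-Veh, 2231 and 1332 under ob/ob-Veh and 707 and 997 under ob/ob-Rosi (1.44 ± 0.42 (SE), adjusted p = 0.292). Lgals3 was thus lower and Ccr2 and Fn1 were higher in the 33-cell library than in the other 4 of the fit. Members not led by macrophage UMIs numbered 16 of 33 in that library. They numbered 199 of 467 and 26 of 345 under WT-Veh and 84 of 465 and 50 of 591 under ob/ob-Rosi. Apoe stood at 8273 and 11672 CPM under WT-Veh, 11059.6 and 2573 under ob/ob-Veh and 11763 and 13753 under ob/ob-Rosi (-0.26 ± 0.50 (SE), adjusted p = 0.825) and did not separate the labels.

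A direct test of whether an effect differed between iWAT and eWAT gave no call among 12619 genes for the ob/ob effect, the Rosi effect or ob/ob-Rosi against WT-Veh (0%), with 1303, 1421 and 247 genes at an unadjusted p under 0.05. DESeq2 was not run for this test. With 33 members behind the iWAT side, this does not show that the depots acted alike.

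The last comparison asked whether the ob/ob effect in Gpnmb/Mmp12-low cells differed from that in the Lyve1/Cd163 macrophages of the same eWAT libraries, with the library as a block. It did for 1197 of 11295 genes across all members (10.6%; 442 higher and 755 lower in the members; 642 and 433 by library size alone), and for 84 of 10327 genes in macrophage-led cells (0.813%; 46, or 0.445%, and 38, or 0.368%). Without WT-Veh replicate 1 the count across all members was 339 and without ob/ob-Veh replicate 1 it was 467. The Lyve1/Cd163 macrophages numbered 459 and 42 under WT-Veh, 1232 and 1085 under ob/ob-Veh and 303 and 27 under ob/ob-Rosi, so few such cells stood behind replicate 2 of WT-Veh and of ob/ob-Rosi. The p-values of this comparison rest mostly on a spread shared over genes, and are not to be set beside those above. MHC class II genes differed in 8 of 10 cases across all members and in 4 of 10 in macrophage-led members, all with the lower effect in the members (higher and lower here refer to the effect and not the level). In macrophage-led members H2-Aa went from 2870 and 5158 CPM under WT-Veh to 5044 and 5877 under ob/ob-Veh, and from 903 and 1295 to 3729 and 4979 in the Lyve1/Cd163 macrophages (difference of log2 effects -1.60 ± 0.24 (SE), edgeR adjusted p = 2.31e-08). Of 14 monocyte genes 2 were higher, Plac8 and Vcan, and 1 lower, Ace, across all members (median -0.18), whereas 5 were higher and none lower in macrophage-led members, among them Plac8 (3.46 ± 0.51, adjusted p = 1.83e-08) and Fn1 (1.57 ± 0.27, adjusted p = 5.86e-06). Chemokines and cytokines turned between the fits: of 22 genes 7 were lower and none higher across all members, such as Il1b, Cxcl2 and Tnf, and 6 were higher and none lower in macrophage-led members, such as Ccl4 (2.06 ± 0.31, adjusted p = 2.32e-08) and Osm (2.34 ± 0.48, adjusted p = 0.000409). For Ccl4 the fall in the Lyve1/Cd163 macrophages, from 200.1 and 427 to 30.6 and 46.5 CPM, was deeper than that in macrophage-led members, from 233 and 199.8 to 147 and 127. Of 24 lipid-associated genes 2 were higher and 9 lower across all members, neither Fabp5 nor Lgals3 among them, and 3 were higher and 4 lower in macrophage-led members. There Fabp5 fell further in the Lyve1/Cd163 macrophages (1.35 ± 0.29, adjusted p = 0.000776), as did Lgals3 (0.92 ± 0.24, adjusted p = 0.0202), while Ctsl fell further in the macrophage-led members (-1.12 ± 0.25, adjusted p = 0.00191). Fabp4 (-3.17 ± 0.25, adjusted p = 1.61e-32), which the endothelial list also holds, fell in macrophage-led members but stood at 706 and 737 CPM under WT-Veh and 1216 and 1059 under ob/ob-Veh in the Lyve1/Cd163 macrophages. All 3 erythroid genes in both fits, and 7 of 8 endothelial genes across all members and 6 of 8 in macrophage-led members, also differed, lower in the members. RNA of other lineages thus moved with this comparison, and the part of free RNA was not tested. For the Rosi effect 1045 genes differed across all members (9.25%) and 49 in macrophage-led cells (0.474%; 28 higher and 21 lower in the members), on the same ob/ob-Veh libraries. Across all members this count fell to 193 without ob/ob-Rosi replicate 1, to 673 without ob/ob-Rosi replicate 2 and to 355 without ob/ob-Veh replicate 1.

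Between ob/ob-Rosi and WT-Veh, 3 genes differed from the Lyve1/Cd163 macrophages across all eWAT members (0.0266%) and 3 in macrophage-led cells (0.0291%). In iWAT 13 of 11975 genes differed in the ob/ob effect (0.109%), 16 in the Rosi effect (0.134%) and 1 between ob/ob-Rosi and WT-Veh (0.00835%).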

How the data were processed

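The authors made 10x Genomics 3-prime libraries, demultiplexed them with bcl2fastq 2.19.1.403 and used Cell Ranger 3.0.2 to align to mm10 and count UMIs. The deposited matrices hold raw UMI counts of 31053 genes per barcode, not normalized and not pooled, and eWAT and iWAT were deposited with different prior filtering. No step named in the methods removed doublets or free RNA. Doublets were kept here and no correction for free RNA was made.

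Members were chosen from raw counts by the rule given in the report. The rule, the members, the 19 gene lists and 13 marker lists were chosen with earlier results of these data known. Endothelial and T cells chosen by their own markers served as references for free RNA. Counts were summed per library, over libraries with at least 20 members, and given as CPM, scaled to the total of those cells. Depots were fitted separately with edgeR 4.0.16 (limma 3.58.1, R 4.3.3) by its quasi-likelihood test, after TMM and filterByExpr and without a replicate block. Residual degrees of freedom were 3 in eWAT and 2 in iWAT. The study's test across cells was not used, since cells of 1 mouse are not replicates. Differences of effects were fitted as interactions, with the library as a block between populations. Outside the fit against the Lyve1/Cd163 macrophages, p-values measure the spread between 2 mice a group under this variance model. In that fit they rest mostly on a spread shared over genes, and are not to be set beside those of the other fits. Shares were compared by exact permutation tests over libraries with scipy 1.17.1, with pandas 2.3.3, numpy 2.4.6 and matplotlib 3.10.9 in Python 3.11.15. The tests were tested on simulated data.

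Genes named are, per contrast, the 5 largest called changes in each direction with a mean of at least 20 CPM and no overlap of groups, the 4 most abundant members of each list and up to 4 further called members, the label markers and a few fixed genes. Genes called only in macrophage-led cells were named after their values were seen. Alternatives were DESeq2 1.42.0, library size alone, no filter on low counts, thinning to 700 UMIs, other limits of the rule, a replicate block and each library left out. Macrophage-led cells, macrophage-led cells of 4000 to 8000 UMIs and the fit with the library of 6 cells were added after the data were seen. Positions are those of GENCODE vM21 (GRCm38).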

Additional observations from a re-analysis of the deposited data

Results flagged for a closer look

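Effects differed between the Gpnmb/Mmp12-low cells and the Lyve1/Cd163 macrophages of the same libraries, by the interaction term of edgeR, in every contrast tested. In eWAT 1197 genes differed in the ob/ob effect, 1045 in the Rosi effect and 3 between ob/ob-Rosi and WT-Veh. These 3 genes were Cxcl13, Ccl4 and Ccl7 (0.0266% of the genes tested), and they were also the 3 called in macrophage-led cells. Cxcl13 stood at 10.3 and 1901 CPM under WT-Veh in the Lyve1/Cd163 macrophages, so its difference of 4.59 ± 0.45 in macrophage-led cells rests on WT-Veh replicate 2, of which 42 such cells were summed. Ccl7 fell in the Lyve1/Cd163 macrophages from 500.2 and 262 CPM under WT-Veh to 123 and 181 under ob/ob-Rosi, and stood at 79.6 and 87.7 and at 115 and 83.5 CPM in macrophage-led cells (difference 1.85 ± 0.32). All 3 were higher in the members. Leaving out 1 library gave 1 to 7 genes, and the direction did not hold: without ob/ob-Rosi replicate 1 all 3 genes called were lower in the members, and without WT-Veh replicate 1 there were 2 higher and 5 lower.

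In iWAT 13 genes differed in the ob/ob effect (0.109%), 16 in the Rosi effect (0.134%) and 1, the collagen gene Col3a1, between ob/ob-Rosi and WT-Veh (0.00835%). Among the 13 were Fabp4 (difference of log2 effects -3.64), the interferon-induced gene Rsad2 (-3.53), the fatty acid receptor Cd36 (-1.95) and Fn1 (-1.48), all lower in the members, and the early response gene Egr1 (1.82) and the globins Hbb-bs (2.79) and Hba-a1 (3.42), higher. In the Rosi effect all 3 erythroid genes were lower in the members. In eWAT erythroid genes went the other way, lower in the members for the ob/ob effect and higher for the Rosi effect. Few members held 2 or more erythroid UMIs in either depot, so this does not show that the depots differ. The ob/ob-Veh side rests on 33 members of 1 library, of which 17 were led by macrophage UMIs. Of the 33 members, 2 held 2 or more erythroid UMIs. In the 17 macrophage-led members Hbb-bs stood at 18.9 CPM, against 22.2 CPM in the Lyve1/Cd163 macrophages of that library. Leaving out 1 library gave 23 to 68 genes for the ob/ob effect.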

How the results depend on the processing

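With 2 libraries a group, shares could not pass an exact test at 0.05, gene calls rest on a variance model, and the ob/ob-Veh side holds only 125 and 123 eWAT members and 33 iWAT members. Of the share ratios and counts of calls, 141 stayed near the reported value under an alternative and 86 moved. The 91 named gene results gave 1426 pairs of a result and an alternative setting. Of these, 1163 kept direction and call, 242 lost the call and 21 turned. In macrophage-led cells 36 of 85 kept both, 37 lost the call and 12 turned. In those of 4000 to 8000 UMIs 10 of 77 kept both, 58 lost the call and 9 turned. No result turned in any other setting, and DESeq2 kept all 91. Why was not tested.

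The eWAT log2 ratio of shares for ob/ob-Veh against WT-Veh was -2.51 with Gpnmb and Mmp12 at 0, -3.27 with at least 2 Trem2 UMIs, -2.77 from 2000 UMIs, -4.29 after thinning, -2.23 over the macrophage gate and -3.73 in macrophage-led cells. For ob/ob-Rosi against ob/ob-Veh it was 2.27, 3.09, 2.52, 4.28, 2.06 and 3.68. For ob/ob-Rosi against WT-Veh it was -0.25 with the pair at 0, -0.24 from 2000 UMIs and 0.27 without cells of other-lineage UMIs. In iWAT it was 6.13 (Rosi effect) and 0.90 (ob/ob-Rosi against WT-Veh) with at least 2 Trem2 UMIs, and -1.20 without other-lineage UMIs. That setting left no member under ob/ob-Veh, so its other contrasts could not be computed. Leaving out 1 library gave -3.04 to -2.82, 2.72 to 2.94 and -0.19 to -0.01 in eWAT, and -5.22 to -2.76, 3.14 to 5.60 and 0.12 to 0.63 in iWAT.

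Genes called in eWAT for the ob/ob effect numbered 1268 with the pair at 0, 449 after thinning, 111 in macrophage-led cells and 12 in those of 4000 to 8000 UMIs. For the Rosi effect they numbered 1392, 438, 64 and 8. For ob/ob-Rosi against WT-Veh they numbered 1 after thinning, 2 in macrophage-led cells, 7 without other-lineage UMIs and 2 with no filter. Leaving out 1 library gave 690 to 1989, 704 to 2144 and 0 to 2.
In iWAT the ob/ob effect gave 157 genes by DESeq2, 6 with the pair at 0, 39 with the library of 6 cells, 8 by library size alone, 305 with no filter and 65 with the replicate block. The Rosi effect gave 245, 2, 87, 486 (no filter) and 111 (replicate block). ob/ob-Rosi against WT-Veh gave 2 by DESeq2, 197 with no filter and 40 with the replicate block. Leaving out 1 library gave 69 to 356 (356 without WT-Veh replicate 1), 43 to 474 (474 without WT-Veh replicate 1) and 0 to 203 (203 without WT-Veh replicate 2). A group left with 1 library took its spread from the others.
The replicate block gave 2583, 2538 and 0 genes in eWAT. Same-numbered libraries correlated at 0.0749 to 0.332 after group means were removed, 1 value under 0.1. All values lay above 0, and whether these libraries share more than a number was not tested.

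Differences from the Lyve1/Cd163 macrophages numbered 84 and 49 in macrophage-led cells, and 5 in iWAT for ob/ob-Rosi against WT-Veh by library size alone. Leaving out 1 library gave 339 to 1090, 193 to 1056 and 1 to 7 in eWAT and 23 to 68, 22 to 39 and 8 to 42 in iWAT. Between depots it gave 0, 0 to 6 and 0.

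In macrophage-led cells Dcn (-0.17 ob/ob effect, 0.13 Rosi effect) and Col3a1 (-1.19, 0.97) turned, but both are on the stromal list that chose these cells. Directions also turned there for Timp2 (-0.57, 0.25), H2-Ab1 (0.24, -0.14), H2-Eb1 (0.25 ob/ob effect), Cd74 (0.093 ob/ob effect), H2-Aa (-0.023 Rosi effect) and Lgals1 (1.14 Rosi effect). At 4000 to 8000 UMIs they turned for Col3a1 (-0.65, 0.59), again a gene of that list, Timp2 (-0.67, 0.54), H2-Ab1 (0.20), H2-Eb1 (0.26) and Cd74 (0.18) in the ob/ob effect where 1 value is given, and for Lgals1 (1.18) and Il6 (0.020) in the Rosi effect. Turned refers to the sign alone, and the value of Il6 carries an SE of 1.46, so it gives no direction.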
